A study of Mus musculus with 4 samples.

Results

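The genes examined here write, read and remove 5-methylcytosine: Dnmt1, Dnmt3a, Dnmt3b, Uhrf1, Tet1, Tet2, Tet3, Mbd1, Mbd2 and Tdg. Accessibility at these 10 genes was taken from ATAC-Seq, an assay that uses Tn5 transposase to tag open DNA with adapters. A region of open chromatin, or site, was assigned to a gene where it overlapped the gene body or lay within 10 kb of an annotated transcription start site (TSS). By this rule 42 of the 82325 sites belonged to the 10 genes. None of the 42 sites passed the threshold used here for a difference between cells with and without HAT1. Among the sites where the values of the genotypes did not overlap, those at the promoters of Tet1 stood furthest apart.

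The cells were mouse embryonic fibroblasts (MEFs) of C57bl6 background, immortalized by transfection with the SV40 T antigen, which the controls carried too. There were 4 libraries, 2 HAT1+/+ (WT) and 2 HAT1-/- (KO), and each came from a different line derived from mid-gestation embryos. HAT1 acetylates newly synthesized histone H4, and the KO carries its loss in the whole embryo. Each line is an independent immortalization, so that differences between lines and differences between genotypes share the same 2 libraries per genotype.

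DNA methylation at CpG dinucleotides is set by the de novo methyltransferases Dnmt3a and Dnmt3b and copied at each replication by Dnmt1, which is brought to hemimethylated CpGs by Uhrf1. The Tet1, Tet2 and Tet3 dioxygenases oxidize 5-methylcytosine, and the glycosylase Tdg excises the oxidized bases so that repair can restore cytosine. Mbd1 and Mbd2 bind methylated CpGs and recruit repressor complexes. In fibroblasts Dnmt1 and Uhrf1 are known as genes of dividing cells, and the methylation patterns they maintain contribute to the silencing of heterochromatin.

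The 42 sites comprised 19 promoter sites, which overlapped the 1 kb on either side of a TSS of their gene, 18 intronic sites and 5 sites outside the gene, with no exonic site. Promoters of their own gene made up 45.2% of these sites, and promoters of any annotated gene made up 25.5% of all sites. The promoters of the neighbouring genes Kdm4b and 1190007I07Rik are thus counted here among the sites outside the gene. The same definitions hold wherever promoter and other sites are set beside all promoter and all other sites. The median value over the 4 libraries was 93 normalized counts, against 52 for all sites, and the median length was 583.5 bp against 440 bp. The promoter sites had a median of 196.75 normalized counts (137.75 for all promoter sites) and the others a median of 57 (42 for all other sites).

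Sequences of 160 bases are shown for the promoters of Tet1, where WT and KO stood apart. CpG-dense counterparts from the maintenance pair are the second promoter site of Uhrf1 and the strongest promoter site of Dnmt1. All coordinates are in mm10, each sequence is written 5′ to 3′ on the strand of its gene, and capitals mark CpG dinucleotides. The Tet1 windows lie at chr10:62886669-62886828 (outer promoter) and chr10:62865556-62865715 (inner promoter), both on the minus strand. The Uhrf1 window lies at chr17:56304098-56304257 on the plus strand, and the Dnmt1 window at chr9:20952624-20952783 on the minus strand.
Tet1 outer promoter: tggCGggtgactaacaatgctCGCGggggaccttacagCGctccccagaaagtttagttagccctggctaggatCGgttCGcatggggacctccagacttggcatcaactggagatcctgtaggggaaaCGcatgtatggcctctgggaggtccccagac
Tet1 inner promoter: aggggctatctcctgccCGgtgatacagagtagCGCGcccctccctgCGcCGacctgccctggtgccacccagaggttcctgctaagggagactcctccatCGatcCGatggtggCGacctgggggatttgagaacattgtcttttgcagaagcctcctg
Uhrf1 second promoter site: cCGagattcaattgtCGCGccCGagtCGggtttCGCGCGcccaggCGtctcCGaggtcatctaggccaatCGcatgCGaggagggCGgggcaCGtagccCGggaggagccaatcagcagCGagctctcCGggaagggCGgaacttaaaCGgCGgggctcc
Dnmt1 promoter: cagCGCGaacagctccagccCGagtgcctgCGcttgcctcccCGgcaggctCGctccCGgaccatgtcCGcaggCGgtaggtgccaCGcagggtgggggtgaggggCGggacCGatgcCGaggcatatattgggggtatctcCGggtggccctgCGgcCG
The Uhrf1 window held 20 CpGs and the Dnmt1 window 16, while the Tet1 windows held 7 and 8. A window of the same length in the stronger Uhrf1 promoter site, just upstream of the start, held 9, so the contrast depends on the site printed. None of these windows contains an annotated TSS of its gene.

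Counted over 300 bases centred on each site, the promoter sites of the 10 genes had a median of 28 CpGs and 68.7% GC, against 18 CpGs and 61.0% GC for all promoter sites. Their other sites had a median of 4 CpGs, against 3 for all other sites. The Tet2 promoter was the most CpG-rich with 56, followed by Dnmt3b with 48 and Tdg with 39. The Tet1 promoters, with 13 CpGs in the inner and 18 in the outer, lay below the median of the group. So did the stronger Uhrf1 promoter site, with 17. The Tet1 counts describe the middle of longer sites, 807 bp (inner) and 1693 bp (outer). Those 300 bases do not reach the annotated TSSs inside these sites, at positions 62865304, 62887324 and 62887512.

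Short motifs were searched on both strands of the same 300 bases. The E2F motif (TTTCCCGC or TTTGGCGC), recognized by the factors that drive S-phase genes, occurred in 3 of the 19 promoter sites (15.8%) and in 2.11% of all promoter sites. These were the strongest Dnmt1 promoter site and both promoter sites of Uhrf1. The matches are given here on the strand of each gene with the motif, or its reverse complement, in capitals. Those of Dnmt1 lie at chr9:20952527-20952556 and chr9:20952572-20952601, and those of Uhrf1 at chr17:56303387-56303416 and chr17:56304008-56304067.
Dnmt1 first match: cttagctgttgGCGCCAAAatgggtggggg
Dnmt1 second match: gcggggcagcgTTTGGCGCgggctgtgctt
Uhrf1 first promoter site: cctgagttttcGCGGGAAAaaaagtcctag
Uhrf1 second promoter site: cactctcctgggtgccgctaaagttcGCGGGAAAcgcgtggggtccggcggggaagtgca
A match shows only that these letters are present. Neither Tet1 promoter held any of the 5 motifs in its central 300 bases. The rest of these sites, which are 807 and 1693 bp long, was not searched.

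Of the other motifs, GGGCGG, the core of Sp1 and KLF sites, was in 52.6% of the promoter sites and in 48.0% of all promoters. The ETS motif CCGGAAG was in 1 promoter site, that of Mbd2 (5.26% against 9.99%). The cyclic AMP response element TGACGTCA was in 0 of the 42 sites and in 0.839% of all sites, and a copy in the Tdg promoter that starts just before the edge of its 300 bases is not counted. The AP-1 motif TGANTCA was in 12 of the 23 sites outside promoters of their own gene (52.2%). It was in 45.3% of all sites outside promoters of any gene. The 23 include the promoters of the neighbouring genes Kdm4b and 1190007I07Rik, neither of which held the motif, so the shares are not of like sets. An example lies in the strongest intronic site of Tet1, at chr10:62851146-62851305 on the minus strand, with the AP-1 match in capitals.
Tet1 intronic site: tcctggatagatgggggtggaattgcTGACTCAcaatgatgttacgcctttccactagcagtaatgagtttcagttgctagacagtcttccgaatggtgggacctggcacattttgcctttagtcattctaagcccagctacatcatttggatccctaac

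Normalized totals were 8008069 and 8150872 in the WT libraries and higher, 8427919 and 8516263, in the KO libraries. The library medians lay between 51 and 53. Depth, as reads inside sites, was recovered from the spacing of the values. It was about 9420000 and 11400000 reads in the WT libraries and about 7830000 and 5680000 in the KO libraries (replicates 1 and 2 of each), so counting error was larger in the KO. Total sequencing depth was not recovered. All 10 fibroblast markers examined had a promoter site, with summed values of 2540 to 2860, as did 6 of 15 markers of other cell types, with sums of 338 to 379. Ptprc, Tie1, Krt18, Myod1, Myog, Sox10, Neurod1, Nanog and Pou5f1 had none. The Hat1 promoter, at 390 and 384 in WT and 438 and 368 in KO, was open in all 4 libraries, so it offered no check of the genotype labels. More cells with an open site and a site open for longer in each cell cannot be told apart in these bulk libraries.

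The first comparison asked whether any of the 42 sites changed with HAT1 loss. A site was called where limma, fitted over all sites, gave an unadjusted p under 0.01 and a log2 fold change of 1 or more in either direction. None of the 42 sites was called, where 0.373% of all sites were (307, of which 249 were lower in KO and 58 higher). No site of the table had a Benjamini-Hochberg adjusted p under 0.05 in limma. At an unadjusted p under 0.05 there was 1 of the 42 (2.38%), the inner Tet1 promoter, against 3.13% of all sites (2579).

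Taken library by library, the sites of the 10 genes split much as the whole table did. Both KO values were below both WT values at 7 of the 42 sites (16.7%), against 14.3% of all sites. Both were above at 6 sites (14.3%), against 14.6% of all. At the other 29 sites the genotypes overlapped. The log2 fold changes of KO against WT ran from -0.91 to 0.62, with 19 below 0 and 23 above, and their median of 0.015 lay beside a median of 0.0062 for all sites. None reached an absolute log2 fold change of 1, which 6.42% of all sites did.

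**Figure D1:**
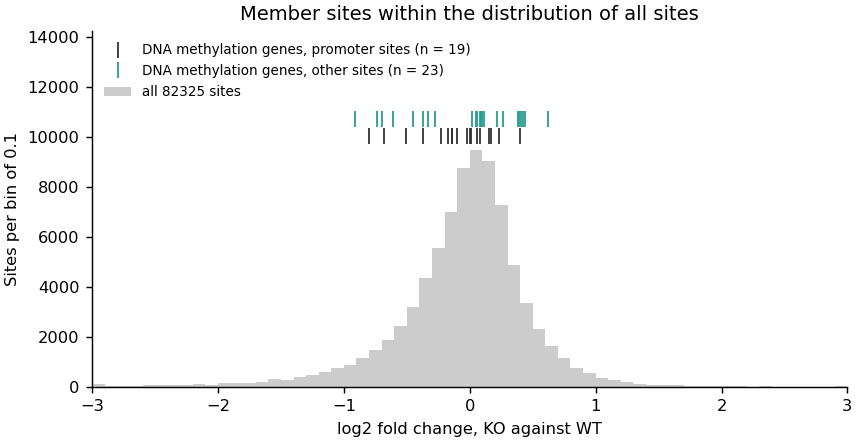
Log2 fold changes (KO against WT) of all 82325 sites as a grey histogram in bins of 0.1, with the end bins holding values beyond 3 in either direction, and the sites of the DNA methylation genes as ticks above it. The 19 promoter ticks and 23 other ticks all fall between -0.91 and 0.62, within the body of the histogram.

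Promoter and other sites of the group had medians of opposite sign, both small. The 19 promoter sites had a median log2 fold change of -0.098, with 11 below 0 and 8 above (all promoters, 0.013). The 23 others had a median of 0.082, with 8 below and 15 above (all others, 0.002). The spread within a genotype was of the same order as the difference between genotypes. Over the 42 sites the median absolute log2 difference between the 2 libraries was 0.24 within WT and 0.41 within KO. The median absolute fold change of KO against WT, a difference between means of 2 libraries, was 0.23. Means vary less than single libraries, so the within-genotype values overstate the spread that applies to the fold change.

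**Figure D2:**
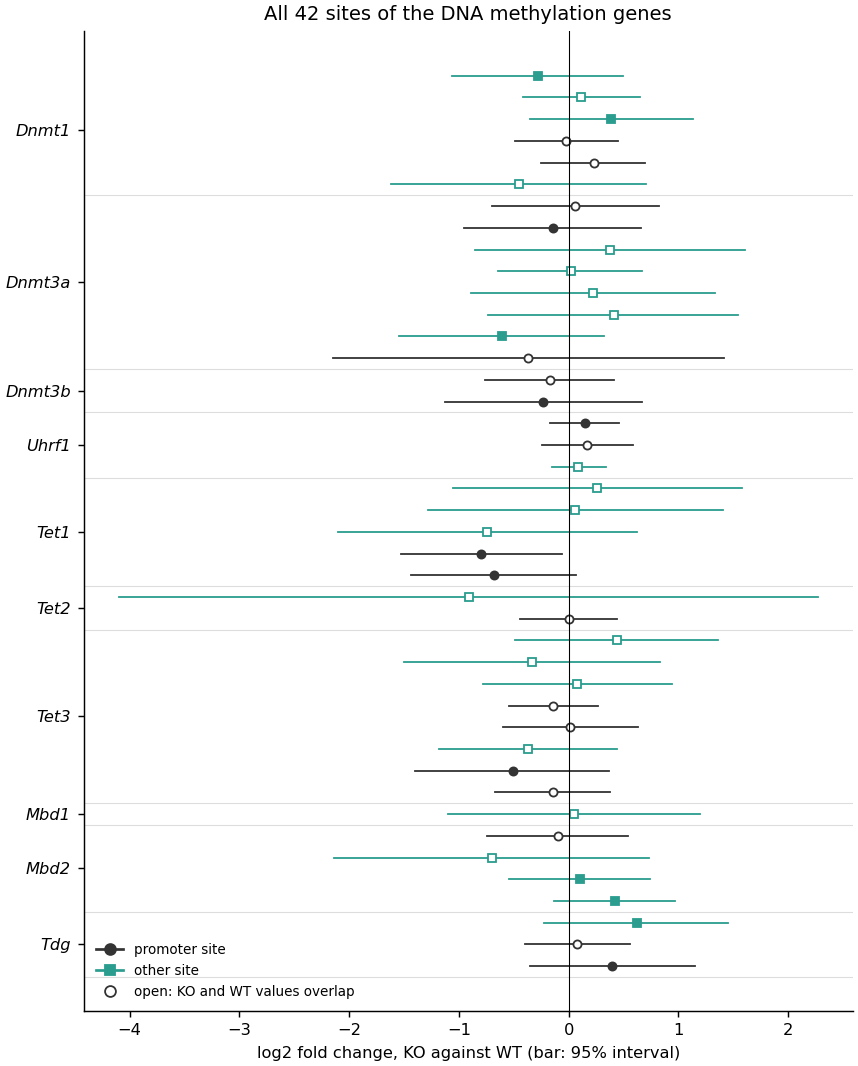
Log2 fold change of KO against WT with its 95% interval for each of the 42 sites, grouped by gene and ordered by position, with circles for promoter sites and squares for other sites. Filled symbols are sites where the KO and WT values did not overlap, and only the interval of the inner Tet1 promoter, from -1.53 to -0.06, leaves out 0.

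The maintenance pair, Dnmt1 and Uhrf1, held 9 sites with log2 fold changes of -0.45 to 0.39 and a median of 0.11. The genotypes separated at 3 of them, 1 lower in KO and 2 higher (14.3% and 14.6% of all sites). Dnmt1 (chr9:20907209-20959888, minus strand) had 6 sites and Uhrf1 (chr17:56303321-56323486, plus strand) had 3.

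The strongest Dnmt1 site, at chr9:20952139-20953194, covers 4 annotated TSSs and carries the E2F matches printed above. It had 373 and 320 normalized counts in WT and 343 and 478 in KO. KO replicate 2 was the highest library and KO replicate 1 fell between the WT values, so the genotypes overlapped (log2 fold change 0.23, SE 0.20, 95% interval -0.25 to 0.70). A neighbouring promoter site at chr9:20951384-20951860 was close to level, at 188 and 208 in WT and 196 and 195 in KO. The annotated TSS furthest upstream, at position 20959888, had no site within 1 kb. The nearest, at chr9:20961520-20962179, ranged from 28 in KO replicate 1 to 70 in WT replicate 2.

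The intronic Dnmt1 site at chr9:20944747-20945324 was higher in both KO libraries, with 98 and 69 in WT and 115 and 102 in KO (log2 fold change 0.39, SE 0.31, unadjusted p = 0.243 by limma). The site beyond the 3′ end, at chr9:20901604-20902010, was lower in both, with 65 and 57 in WT and 53 and 47 in KO (-0.28, SE 0.32). Both intervals included 0. The strongest site of Dnmt1 outside promoters, the intronic site at chr9:20943317-20944094, had 151 and 157 in WT and 154 and 180 in KO.

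Uhrf1, which recognizes hemimethylated CpGs, had a closely replicated promoter. The site over its start, at chr17:56303000-56303736, had 339 and 344 normalized counts in WT (342 ± 3.54, SD, n = 2) and 376 and 380 in KO (378 ± 2.83, SD, n = 2). The KO libraries were both above the WT libraries, by a log2 fold change of 0.15 (SE 0.13, 95% interval -0.17 to 0.46, unadjusted p = 0.306 by limma). With the library totals made equal this log2 fold change was 0.078, and with quantile normalization it was 0.021. The second promoter site, at chr17:56303859-56304497, had 319 and 259 in WT and 339 and 310 in KO and overlapped. The remaining Uhrf1 site, at chr17:56325457-56326284, is the promoter of the neighbouring gene Kdm4b, with 659 and 646 in WT and 649 and 747 in KO, and it counts here only because an internal Uhrf1 TSS is 7.43 kb away.

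The de novo methyltransferases held 10 sites with a median log2 fold change of -0.06 and a range of -0.61 to 0.41. Both KO values lay below both WT values at 3 of the 10 (14.3% of all sites) and above at none (14.6% of all sites). Dnmt3a (chr12:3806007-3914443, plus strand) had 8 sites, all centred within 60.9 kb of its 5′ end, and Dnmt3b (chr2:153649450-153687730, plus strand) had 2.

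At the Dnmt3a promoter, chr12:3806203-3806849, values were 86 and 79 in WT and 103 and 72 in KO, so the KO libraries were the highest and the lowest of the 4. The largest separation was at the intronic site chr12:3855745-3856377, with 85 and 59 in WT and 37 and 57 in KO (log2 fold change -0.61, SE 0.38, 95% interval -1.55 to 0.32). The strongest Dnmt3a site was a different intronic site, chr12:3824757-3825453, with 105 and 116 in WT and 126 and 99 in KO. The internal promoter of the short Dnmt3a isoform, at positions 3891728 and 3891744, had no site nearer than 24.7 kb.

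The Dnmt3b promoter, chr2:153649109-153650238, overlaps the start of the antisense transcript Dnmt3bos, and accessibility cannot be divided between the 2. It had 168 and 147 normalized counts in WT and 155 and 125 in KO, which overlap (log2 fold change -0.17, SE 0.24). The second site, at an internal TSS (chr2:153668757-153669142), had 37 and 36 in WT and 33 and 29 in KO, lower in both KO libraries by a log2 fold change of -0.23 (SE 0.37).

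The genes of oxidation and excision, Tet1, Tet2, Tet3 and Tdg, held 18 sites with a median log2 fold change of -0.07 and the widest range, -0.91 to 0.62. There were 9 sites on each side of 0. The genotypes separated at 5 of the 18, of which 3 were lower in KO and 2 higher (14.3% and 14.6% of all sites). The 3 lower sites belonged to Tet1 and Tet3, and both higher sites to Tdg.

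Tet1 (chr10:62804570-62908996, minus strand) was the only gene of the 10 with a site at an unadjusted p under 0.05. That site, the inner promoter at chr10:62865233-62866039, holds the TSS of a processed transcript at position 62865304. Its values were 106 and 131 normalized counts in WT (118 ± 17.7, SD, n = 2) and 77 and 59 in KO (68 ± 12.7, SD, n = 2). Both KO libraries lay below both WT libraries. The log2 fold change was -0.80 (SE 0.30, 95% interval -1.53 to -0.06), with an unadjusted p of 0.0381 and an adjusted p of 1 by limma over all sites, so it did not pass the test. With 1 library left out the unadjusted p by limma was 0.0448 without KO replicate 1 but 0.078 without WT replicate 1, 0.176 without WT replicate 2 and 0.121 without KO replicate 2. The values rested on about 125, 183, 72 and 39 reads, in the order WT replicates 1 and 2, KO replicates 1 and 2.

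The outer Tet1 promoter, chr10:62885903-62887595, was the strongest site of the gene. It had 331 and 364 normalized counts in WT (348 ± 23.3, SD, n = 2) and 300 and 155 in KO (228 ± 103, SD, n = 2). Both KO libraries were again below both WT libraries, but KO replicate 1 was close to the WT values and KO replicate 2 stood well below them. The log2 fold change was -0.68 (SE 0.31, 95% interval -1.44 to 0.07, unadjusted p = 0.0693 by limma). Without KO replicate 1 it was -1.16 with an unadjusted p of 0.0061 by limma, which meets the threshold for a call, and without KO replicate 2 it was -0.21. Most of the difference at this promoter thus came from KO replicate 2, which was also the library with the fewest reads in sites. The part of depth in it was not tested.

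The 3 intronic Tet1 sites did not separate the genotypes. The strongest, chr10:62850932-62851520, whose AP-1 match is printed above, had 73 and 237 in WT and 171 and 111 in KO, so the WT libraries were the lowest and the highest of the 4. The site at chr10:62847121-62847597 had 33 and 48 in WT and 79 and 29 in KO. The site at chr10:62855063-62855355 had 48 and 29 in WT and 34 and 14 in KO. Summed over its 5 sites Tet1 had 591 and 809 in WT and 661 and 368 in KO (log2 fold change -0.49, SE 0.29, 95% interval -1.18 to 0.20), the largest of the 10 genes in size, with KO replicate 1 between the WT libraries.

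**Figure D3:**
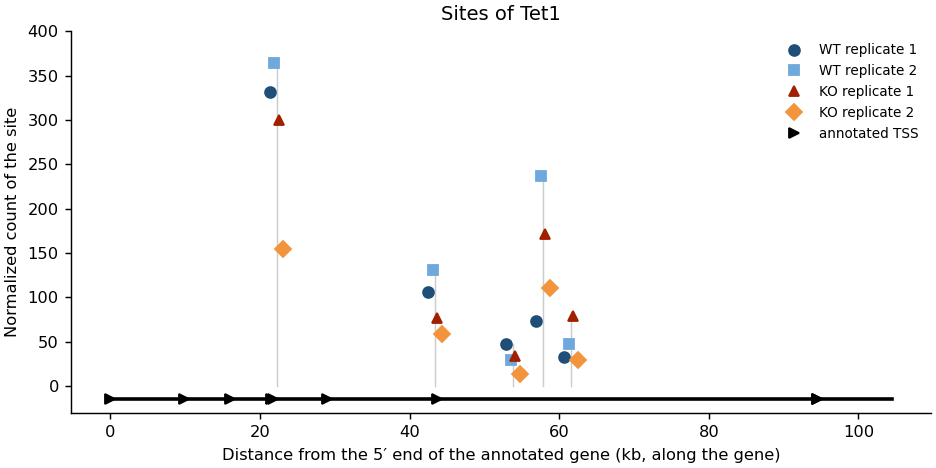
Normalized counts of the 5 Tet1 sites in each library, placed by distance in kb from the 5′ end of the annotated gene, with arrowheads for annotated TSSs on the gene line. The outer and inner promoters, 22.2 and 43.4 kb into the gene, have both KO libraries under both WT libraries, and the 3 sites deeper in the gene do not.

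At the annotated 5′ end of Tet1 no site was listed. None lay within 1 kb of the TSSs at positions 62899118 and 62908996, and over the gene 3 of 10 annotated TSSs had a site within 1 kb. Over the 10 genes this held for 39 of 85 annotated TSSs.

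Tet2 (chr3:133463679-133545139, minus strand) was the steadiest of the dioxygenase genes. Its promoter, chr3:133544000-133545146, also holds the start of the antisense gene Gm42567 and had 232 and 226 normalized counts in WT and 215 and 244 in KO. The fold change was 0.00 on the log2 scale (SE 0.18, 95% interval -0.44 to 0.44). The only other site, chr3:133497044-133497256, had low values, with 4 and 16 in WT and 3 and 5 in KO, and its log2 fold change of -0.91, the lowest of the 42, had an interval of -4.10 to 2.27.

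Tet3 (chr6:83362373-83459084, minus strand) had 8 sites, 4 of them at promoters. The strongest, chr6:83441154-83441998, overlaps the gene B230319C09Rik and had 320 and 292 in WT and 302 and 256 in KO. The genotypes separated only at the promoter site chr6:83455534-83455921, with 63 and 51 in WT and 33 and 47 in KO (log2 fold change -0.51, SE 0.37, 95% interval -1.40 to 0.37). The strongest site outside a promoter, chr6:83443528-83443744, had 93 and 71 in WT and 73 and 54 in KO. The other 5 Tet3 sites had log2 fold changes of -0.33 to 0.44, all with overlapping genotypes.

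Tdg (chr10:82629828-82650799, plus strand) moved the other way from Tet1 in sign. Its promoter, chr10:82629342-82630364, had 356 and 317 in WT and 300 and 420 in KO and overlapped, with the KO libraries at either end. The second promoter site, chr10:82630930-82631358, had 69 and 91 in WT and 119 and 92 in KO (log2 fold change 0.40, SE 0.31). The site 6.16 kb upstream, chr10:82622602-82623669, had 244 and 119 in WT and 251 and 274 in KO (log2 fold change 0.62, SE 0.34, 95% interval -0.22 to 1.45). It is the promoter of the neighbouring gene 1190007I07Rik, and WT replicate 2 was the library that stood apart there. Without that library the log2 fold change was 0.10, and without WT replicate 1 it was 1.13 (unadjusted p = 0.014 by limma, above the 0.01 of the call).

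The methyl-CpG readers Mbd1 and Mbd2 held 5 sites with a median log2 fold change of 0.05 and a range of -0.70 to 0.42. The KO libraries were both above WT at 2 of the 5 (14.6% of all sites) and both below at none (14.3%). No site lay within 1 kb of any of the 6 Mbd1 TSSs. The only Mbd1 site, chr18:74286007-74286541, lies in an intron of Cfap53, 9.37 kb from the nearest Mbd1 TSS, and had 61 and 67 in WT and 42 and 104 in KO, the KO libraries being the lowest and the highest.

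Mbd2 (chr18:70568189-70626131, plus strand) had an open promoter at chr18:70567858-70568561, with 255 and 215 in WT and 174 and 275 in KO. Its introns held the separated sites. At chr18:70601195-70602488 values were 154 and 211 in WT and 255 and 230 in KO (log2 fold change 0.42, SE 0.23, 95% interval -0.13 to 0.97, unadjusted p = 0.109 by limma). At chr18:70587864-70588370 they were 91 and 97 in WT and 103 and 99 in KO, a log2 fold change of 0.10 (SE 0.26). A weak intronic site at the position 70579061 had 28 and 34 in WT and 31 and 11 in KO.

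**Figure D4:**
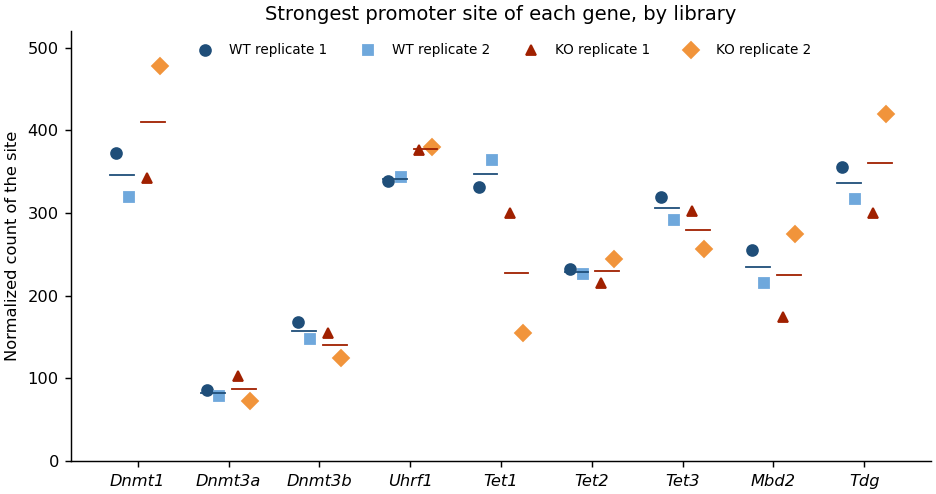
Normalized count of the strongest promoter site of each of the 9 genes that had one, by library, with short lines for the mean of each genotype (n = 2). Both KO libraries lie under both WT libraries at Tet1, both lie slightly above at Uhrf1, and the genotypes overlap at the other 7 genes.

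Per kb of length, the strongest promoter sites fell into a graded order over the 4 libraries. Uhrf1 was highest at 488 ± 28.8 normalized counts per kb (SD, n = 4), with a range of 460 to 516 that lay above all the others and placed it at percentile 93.6 of all promoter sites. Dnmt1 (358 ± 66.1), Tet3 (346 ± 31.9), Tdg (340 ± 52.1) and Mbd2 (326 ± 63.6) followed with overlapping ranges. Tet2 had 200 ± 10.5, and its highest library, at 213, was below the lowest of Mbd2, at 247. Tet1 (170 ± 54.4, range 91.6 to 215) overlapped Tet2, and Dnmt3b (132 ± 16.0) and Dnmt3a (131 ± 20.5) were lowest and overlapped each other. This order is over both genotypes, and the place of Tet1 in it differed between libraries. Tet1 had 196 and 215 per kb in WT, where Tet2 had 202 and 197, but 177 and 91.6 in KO, the latter below the 111 of both Dnmt3a and Dnmt3b in the same library.

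Summed over the sites of each gene, none of the 10 genes passed the test between genotypes, with limma adjusted p between 0.928 and 1 over 17052 protein-coding genes. No gene of the table passed an adjusted p of 0.05, and 3.94% of genes (672) had an unadjusted p under 0.05, none of them among the 10. Both KO libraries were above both WT libraries at 3 of the 10 genes, against 23.0% of all genes, and below at none, against 11.7% of all. The 3 were Uhrf1, with summed values of 1317 and 1249 in WT and 1364 and 1437 in KO, Mbd2, with 528 and 557 in WT and 563 and 615 in KO, and Tdg, with 669 and 527 in WT and 670 and 786 in KO. The log2 fold changes were 0.13 (SE 0.11) for Uhrf1, 0.12 (SE 0.12) for Mbd2 and 0.29 (SE 0.16) for Tdg. The sum of Tdg includes the 1190007I07Rik promoter, and without it Tdg had 425 and 408 in WT and 419 and 512 in KO, which overlap (log2 fold change 0.15, SE 0.15). Uhrf1 without the Kdm4b promoter had 658 and 603 in WT and 715 and 690 in KO (0.16, SE 0.12), with KO still above.

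In the other 7 genes the genotypes overlapped, as given above for Tet1 and for the single site of Mbd1. Dnmt1 summed to 923 and 881 in WT and 889 and 1065 in KO (log2 fold change 0.11, SE 0.13), and Dnmt3a to 484 and 422 in WT and 497 and 411 in KO (0.00, SE 0.16). Dnmt3b summed to 205 and 183 in WT and 188 and 154 in KO (-0.19, SE 0.21). Among the dioxygenase genes, Tet2 had 236 and 242 in WT and 218 and 249 in KO (-0.04, SE 0.17), and Tet3 had 1011 and 955 in WT and 1019 and 796 in KO (-0.13, SE 0.15). The median of all genes was 0.046.

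Accessibility around the genes was compared with that at the genes, because HAT1 loss has been described in terms of large domains. A window of 25 consecutive sites centred on each site was averaged, and a mean log2 fold change under -0.58 was taken as the mark of a domain. No window centred on the 42 sites passed it (range -0.464 to 0.124), where 3.42% of all windows did. The lowest were at Mbd2 and Mbd1. Around the Mbd2 promoter the 21 other sites of the window, spread over 3.3 Mb, had a mean of -0.54 and a median of -0.13, while the 4 sites of Mbd2 had a mean of -0.07. Around Mbd1 the 24 other sites, over 1.01 Mb, had a mean of -0.43 and a median of -0.24.

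The lower means around Mbd1 and Mbd2 were present in both KO libraries. Around Mbd2 the other sites were lower than the WT mean by a log2 difference of -0.67 for KO replicate 1 against -0.41 for KO replicate 2, and the WT libraries differed from each other by 0.10. Around Mbd1 the differences were -0.57 and -0.28. Around Tet1 they were of opposite sign, 0.05 for KO replicate 1 against -0.28 for KO replicate 2, with a mean of -0.11 against a mean of -0.38 for its own 5 sites. Around the other 7 genes the means were between -0.05 and 0.08. KO replicates 1 and 2 were of opposite sign there too around Dnmt3b (0.21 and -0.31), Tdg (-0.17 and 0.33), Dnmt3a (0.19 and -0.16) and Tet2 (-0.11 and 0.05). Both were above 0 around Uhrf1 and Tet3, and they were -0.03 and 0.0 around Dnmt1.

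**Figure D5:**
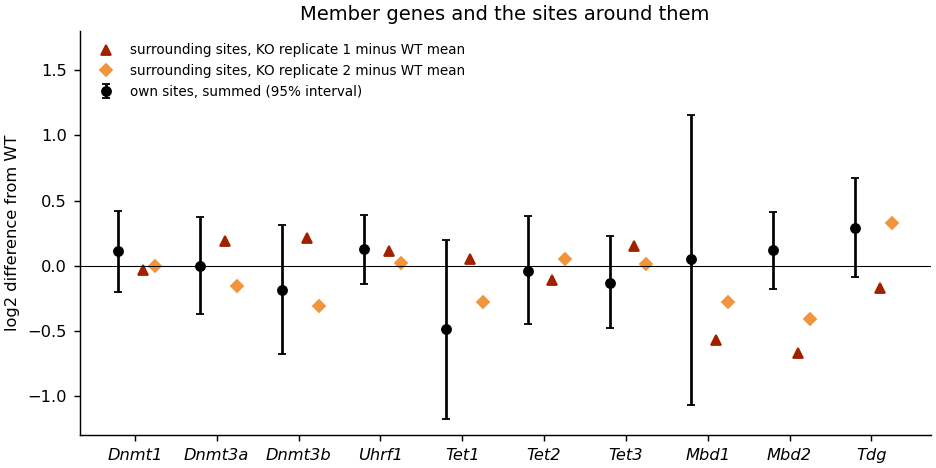
Log2 difference from WT for the summed sites of each gene (black, with 95% interval) and for the other sites of the 25-site window around it in KO replicate 1 (triangles) and KO replicate 2 (diamonds). Both KO symbols lie well under 0 around Mbd1 and Mbd2, while the black points of these genes lie above 0, at 0.05 and 0.12.

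A list of 30 further genes of methylation, its reading, its removal and the methyl donor cycle was examined in the same way. All 30 had sites, 122 in all, and 26 had a promoter site. None of their sites was called (0.373% of all sites), and 4 of the 122 had an unadjusted p under 0.05 by limma (3.13% of all sites). None of the genes had an adjusted p under 0.05 by limma. At an unadjusted p under 0.05 there was 1 of the 30 genes, against 3.94% of all genes. That gene was Gadd45g, which has been linked to active demethylation. It had summed values of 822 and 821 in WT and 938 and 1099 in KO (log2 fold change 0.31, SE 0.12, adjusted p = 0.928 by limma). Both KO libraries were above WT at 13 of the 30 genes (43.3%, against 23.0% of all genes) and below at 2 (6.67%, against 11.7%).

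The log2 fold changes of the 30 genes had a median of 0.092 and ran from -0.91 at Dppa3, with 27 and 32 in WT and 19 and 12 in KO, to 0.39 at Hells. Hells, a remodelling factor needed for methylation of repeats, had 268 and 250 in WT and 393 and 293 in KO. Uhrf2, the paralog of Uhrf1, had 354 and 376 in WT and 504 and 405 in KO, and Kdm2a, a demethylase that binds unmethylated CpG islands, had 1085 and 1009 in WT and 1537 and 1128 in KO. These genes all lie on chromosome 19 and all were highest in KO replicate 1. The median of all chromosome 19 sites was raised by 0.355 on the log2 scale in that library against -0.139 in KO replicate 2, and its part in these values was not tested.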

How the data were processed

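ATAC-Seq libraries of 2 HAT1 WT and 2 HAT1 KO lines of immortalized MEFs were analysed. Per the labels, reads were mapped to mm10 with BWA 0.7.12, peaks were called with MACS2 2.1.0 and DESeq2 was used for the comparison. The deposited values are a score: normalized counts per site, which the authors obtained by scaling the reads of each library and rounding. The deposited table also holds the authors' own comparison (fold changes, plain and shrunken, with p-values and their adjusted form), which was not used. Read filtering, duplicate removal and the Tn5 offset were not given in the sources used here.

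Each site was tested with limma 3.58.1 (R 4.3.3) with an intensity trend on log2(value + 1), KO against WT, over all 82325 sites, with two-sided tests and Benjamini-Hochberg adjustment. Fold changes on this scale understate those of low sites. Gene values were summed over sites and tested in the same way. A count test was not used, because whole reads could not be recovered for the WT libraries. The depth in sites was estimated from the spacing of the values, and only counting error is limited by it. Replicates were numbered in accession order. The labels name separate lines. The SE, intervals and p-values of limma combine the spread between these lines at a site or gene with the spread at others of like value. They are therefore not the spread of the 4 lines at that site alone.

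Sites were placed with GENCODE vM21 models on GRCm38, the assembly of mm10. Promoter sites overlapped the 1 kb on either side of a TSS. Neighbouring genes can share sites. Named sites were the strongest promoter site of each gene, the strongest other site, called sites, and, among sites at or above the median value whose genotypes did not overlap, the 10 with the largest fold changes. Further sites were named after their values were seen. The genes, lists and tests were chosen with earlier results of these data known. The fit was tested on simulated data in which 200 of 82325 sites, all at or above the median value, changed by a log2 fold of 2. All 200 were called, as were 184 unchanged sites. Smaller changes, such as those at the 10 genes, were not simulated. Alternatives were a pseudocount of 8, sites at or above the median value, equal totals, quantile normalization, centring by chromosome, no intensity trend, promoters alone, a 3 kb rule and each library left out, and, chosen after seeing the data, gene sums without the promoters of neighbouring genes. Python 3.11.15, numpy 2.4.6, pandas 2.3.3 and matplotlib 3.10.9 were used.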

Additional observations from a re-analysis of the deposited data

How the results depend on the processing

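No paired analysis was possible because replicate numbers follow accession order and the labels pair no lines. A number shared by the names of 1 WT and 1 KO line is not explained in the labels. Among site and gene values, 190 of 197 kept their direction and side of the threshold under the scaling, filter and model alternatives and 7 changed sign, and 115 of 132 did so with 1 library left out, where 16 changed sign and 1 became a call. A change of sign was not counted where either value was within 0.005 of 0. In these leave-one-out fits the lone library of a genotype is assumed to vary like the other genotype. No site of the 10 genes was called under any alternative except without KO replicate 1 (0 to 1 calls), where the outer Tet1 promoter was called. The inner Tet1 promoter stayed below 0, from -0.61 without KO replicate 2 to -0.99 without KO replicate 1, but its unadjusted p by limma stayed under 0.05 in 1 of these 4 fits (0.0448 to 0.176). Of all sites, 249 were called lower, against 76 among sites at or above the median value, 476 without the intensity trend, and 14 (without WT replicate 2) to 548 (without KO replicate 2) with 1 library left out, with 20 without WT replicate 1. The 58 called higher became 22 (without WT replicate 2) to 64 (without KO replicate 2). The median of the 42 sites, 0.015, was -0.053 with equal totals, -0.044 with quantile normalization, -0.098 for promoters alone, 0.006 with the 3 kb rule, and -0.157 (without KO replicate 1) to -0.001 with 1 library left out. The median of all sites, 0.006, moved as well with equal totals, to -0.061, below that of the 42. It was -0.0 with quantile normalization and 0.01 without KO replicate 1, above that of the 42 in both.

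Values near 0 changed sign. With equal totals, the Mbd1 site and gene were at -0.018 and the Dnmt3a site at position 3824757 at -0.051. That site was at -0.024 with quantile normalization and -0.072 with centring by chromosome, the Dnmt3a promoter was at -0.027 with that centring, and the Tdg promoter was at -0.036 with quantile normalization. With 1 library left out, gene values ranged from -0.021 to 0.24 for Dnmt1, -0.59 to 0.69 for Mbd1 and its site, -0.13 to 0.059 for Tet2 and -0.30 to 0.052 for Tet3. Site values ranged from -0.01 to 0.47 at the Dnmt1 promoter, -0.19 to 0.32 at the Dnmt3a promoter, -0.16 to 0.19 at position 3824757, -0.43 to 0.23 at the Mbd2 promoter, -0.16 to 0.32 at the Tdg promoter and -0.78 to 0.91 at the strongest intronic Tet1 site. The Tet1 gene value ranged from -0.91 without KO replicate 1 to -0.065 without KO replicate 2. The Uhrf1 gene value, 0.13, was 0.058 with equal totals and 0.011 with quantile normalization. The cause of these changes was not tested. Left out after the data were seen, the promoters of neighbouring genes moved the gene value of Tdg from 0.29 to 0.15 and that of Uhrf1 from 0.13 to 0.16. Both KO libraries had fewer reads in sites than both WT libraries, and what more depth would change was not tested.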
